A study of Mus musculus with 6 samples.

Results

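Glycogen is a branched glucose polymer, and its making and breaking in brown fat is represented here by 9 genes, chosen by symbol from the deposited read count table. They are the 2 glycogen synthases Gys1 and Gys2, the branching enzyme Gbe1, Ugp2, the 3 glycogen phosphorylases Pygl, Pygb and Pygm, and the glycogen-targeting subunits Ppp1r3b and Ppp1r3c. All 9 were among the 45777 genes of the table, and all 9 entered the test of 16707 genes. The tested samples were brown adipose tissue of male wild-type C57Bl6/J mice after 2 weeks of intraperitoneal ginsenoside Rb2, a glycoside of ginseng. The controls were the same tissue after PBS, with 3 mice per group. The sources used here do not give the dose or the age of the mice. The libraries are named by the numbers of the table's columns: Rb2 1, 3 and 4, and PBS 1, 2 and 4.

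UDP-glucose, made by UDP-glucose pyrophosphorylase (Ugp2), is the sugar donor that glycogen synthase adds to the growing chain, and the branching enzyme (Gbe1) introduces the branches. Glycogen phosphorylase releases glucose-1-phosphate from the chain ends. The Ppp1r3 subunits bring protein phosphatase 1 (PP1) to the glycogen particle, where it activates the synthase and inactivates the phosphorylase. Gys1 and Pygm are the forms known from muscle, Gys2 and Pygl those known from liver and Pygb that known from brain, though Gys1 and Pygb are also made in many other tissues. Brown adipocytes keep a glycogen store beside their lipid droplets.

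None of the 9 genes passed the test for a difference between Rb2 and PBS (quasi-likelihood F test of edgeR, Benjamini-Hochberg adjusted p under 0.05 over all tested genes), where 10.4% of all tested genes passed, 5.33% as higher and 5.11% as lower. The lowest adjusted p of the 9 was 0.0643. At an unadjusted p under 0.05 there were 4, namely Gys2, Gbe1, Ppp1r3b and Ppp1r3c, against 30.0% of all tested genes. limma-voom also called 0 of the 9, where it called 9.74% of all genes. The Wald test of DESeq2, which called 19.8% of all genes, called 3: Gbe1 and Ppp1r3b higher and Ppp1r3c lower with Rb2. The median log2 fold change of the 9 genes was 0.34, against -0.01 over all tested genes, and 7 of the 9 had a positive value.

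The libraries held 83642183 to 92666780 counts, and among the members the lowest count was 420, of Pygm in Rb2 1. Values are counts scaled by library size and TMM factors (CPM), and an error is an SD over 3 libraries unless an SE is named. Brown adipocyte markers were present in every library, with Ucp1, the uncoupling protein of heat production, between 2928 and 4687 CPM with Rb2 and between 3388 and 4770 CPM with PBS. Of the 8 brown adipocyte markers edgeR called Zic1 higher (4.94 ± 1.79 CPM with Rb2 and 2.28 ± 0.57 CPM with PBS) and Prdm16 (12.3 ± 1.88 and 26.9 ± 3.21 CPM, in the same order) and Elovl3 (22.0 ± 7.86 and 73.8 ± 19.0 CPM) lower, with adjusted p between 0.00584 and 0.0430. Of 5 endothelial markers, summing to 627 to 912 CPM with Rb2 and 1071 to 1203 CPM with PBS, Cldn5 and Cdh5 were called lower (edgeR adjusted p = 0.00258 and 0.0175). Skeletal muscle transcripts varied far more. The summed level of 18 muscle markers was 1.32, 474 and 273 CPM in Rb2 1, 3 and 4, against 2493, 7539 and 8.75 CPM in PBS 1, 2 and 4. Myosin, actin and creatine kinase genes of muscle (Myh4, Acta1 and Ckm) were thus near 0 in Rb2 1 and PBS 4 and abundant in PBS 1 and PBS 2. The part of these cell types in the results below was not tested, except where a value is given.

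Of the 3 genes that DESeq2 called, RefSeq's promoter table covers Ppp1r3c and Gbe1, whose log2 fold changes had opposite signs. Their windows run from 250 bases before to 50 bases after the annotated start. Capitals mark the E-box CACGTG, the sequence bound by clock proteins such as BMAL1, and the hypoxia core ACGTG, in both orientations. The Ppp1r3c window lies on the minus strand at chr19:36736555-36736854 and the Gbe1 window on the plus strand at chr16:70313699-70313998 (GRCm38.p6).
Ppp1r3c: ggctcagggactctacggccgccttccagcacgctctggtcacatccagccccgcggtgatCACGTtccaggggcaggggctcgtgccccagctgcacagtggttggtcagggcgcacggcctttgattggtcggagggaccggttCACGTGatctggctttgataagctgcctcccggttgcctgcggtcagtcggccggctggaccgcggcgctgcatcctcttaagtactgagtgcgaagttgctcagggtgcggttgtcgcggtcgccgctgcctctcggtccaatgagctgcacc
Gbe1: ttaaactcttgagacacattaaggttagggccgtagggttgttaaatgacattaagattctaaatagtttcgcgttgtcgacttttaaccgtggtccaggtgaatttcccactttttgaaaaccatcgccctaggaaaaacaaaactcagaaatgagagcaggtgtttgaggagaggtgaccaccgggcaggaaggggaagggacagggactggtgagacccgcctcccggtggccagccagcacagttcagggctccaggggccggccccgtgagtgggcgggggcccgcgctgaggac
The Ppp1r3c window held 1 E-box at positions -104 to -99 from the start, and 1 hypoxia core outside it at -189 to -185, on the opposite strand. The Gbe1 window held no E-box, hypoxia core, D-box (TTATGTAA or TTACGTAA) or cAMP element (TGACGTCA). Of 32851 promoter windows in the table, 7.15% held an E-box, 13.6% a hypoxia core outside an E-box, 1.06% a D-box and 1.79% a cAMP element. Among the 7 members with a window, Ppp1r3c alone held an E-box, while Ugp2, Pygl, Pygb and Pygm each held 1 hypoxia core and Gys1 none. Ugp2 had 2 windows, of which 1 held the match. Gys2 and Ppp1r3b have no window here.

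Among the genes of synthesis, Ugp2 (gene 216558; chromosome 11, 21321126 to 21371267) was at 168, 193 and 119 CPM in Rb2 1, 3 and 4, and at 140, 117 and 123 CPM in PBS 1, 2 and 4. The groups overlapped through Rb2 4. The log2 fold change of Rb2 over PBS was 0.34 ± 0.19 SE (edgeR adjusted p = 0.247), and it was 0.11 when differences between libraries tied to GC content and transcript length were offset. The longest Ugp2 transcript has 39.1% G and C, the lowest share among the 9 genes.

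Gys1, the synthase of muscle and most other tissues (gene 14936; chromosome 7, 45434839 to 45456617), was at 171, 136 and 114 CPM in Rb2 1, 3 and 4, and at 97.2, 120 and 106 CPM in PBS 1, 2 and 4. The highest levels were in Rb2 1 and Rb2 3, and Rb2 4 was below PBS 2. The log2 fold change was 0.38 ± 0.17 SE (95% interval -0.00 to 0.77, edgeR adjusted p = 0.167), and with the GC and length offset it was 0.60 (edgeR adjusted p = 0.0621). Muscle transcripts did not order the Gys1 levels: Rb2 1, with 1.32 CPM of muscle markers, had the highest Gys1 level, and PBS 1, with 2493 CPM, had the lowest. With the muscle markers as a covariate the log2 fold change was 0.32 (edgeR adjusted p = 0.339). Exons of Gys1 share 310 bases with Ruvbl2 on the opposite strand, and the sources used here do not say whether the counting used strand.

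Gys2, the synthase known from liver (gene 232493; chromosome 6, 142422612 to 142473130), was at 43.2, 62.3 and 54.6 CPM in Rb2 1, 3 and 4, and at 46.3, 34.5 and 39.996 CPM in PBS 1, 2 and 4. Rb2 3 and Rb2 4 were above all PBS libraries, and Rb2 1 was below PBS 1. The log2 fold change was 0.41 ± 0.17 SE (95% interval 0.04 to 0.78, edgeR adjusted p = 0.136). Summed over 10 hepatocyte markers, levels were 787 to 1138 CPM with Rb2 and 911 to 1518 CPM with PBS, most of it from Hp (haptoglobin), which adipocytes also make, and Tat was at 0 in Rb2 3 and all PBS libraries. Albumin (Alb), a defining hepatocyte transcript, was at 23.7, 1.22 and 21.4 CPM in Rb2 1, 3 and 4, and at 1.89, 0.53 and 1.22 CPM in PBS 1, 2 and 4. Apoa1, Apoa2, Ttr, Serpina1a, Fgb and Tat were, like Alb, highest in Rb2 1 and Rb2 4. Apoa1, for instance, was at 5.03, 0.182 and 4.34 CPM in Rb2 1, 3 and 4, and at most 0.691 CPM with PBS. Hp, Apoc3 and Cyp2e1 were each highest in a PBS library. Cyp2e1 was at 55.9, 106 and 133 CPM in Rb2 1, 3 and 4, and at 267, 366 and 19.4 CPM in PBS 1, 2 and 4. The part of hepatocyte transcripts in the Gys2 levels was not tested.

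Gbe1, the branching enzyme (gene 74185; chromosome 16, 70313949 to 70569720), was at 312, 259 and 143 CPM in Rb2 1, 3 and 4, and at 149, 102 and 128 CPM in PBS 1, 2 and 4. Rb2 1 and Rb2 3 stood well above the PBS libraries, while Rb2 4 lay below PBS 1. The mean was 238 ± 86.7 CPM with Rb2 and 127 ± 23.5 CPM with PBS (SD, n = 3 each), a fold of 1.88 with a 95% interval of 1.20 to 2.96 (log2 fold change 0.91 ± 0.28 SE, edgeR adjusted p = 0.0772). Without Rb2 4 the log2 fold change was 1.17 and passed (edgeR adjusted p = 0.00991). That test, which leaves 2 Rb2 libraries, called 13.3% of all genes. Leaving out any other single library gave log2 fold changes of 0.67 to 1.05, and none passed (edgeR adjusted p between 0.129 and 0.222). The muscle covariate gave 0.77 (edgeR adjusted p = 0.174) and the GC and length offset 0.75 (edgeR adjusted p = 0.111).

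**Figure D1:**
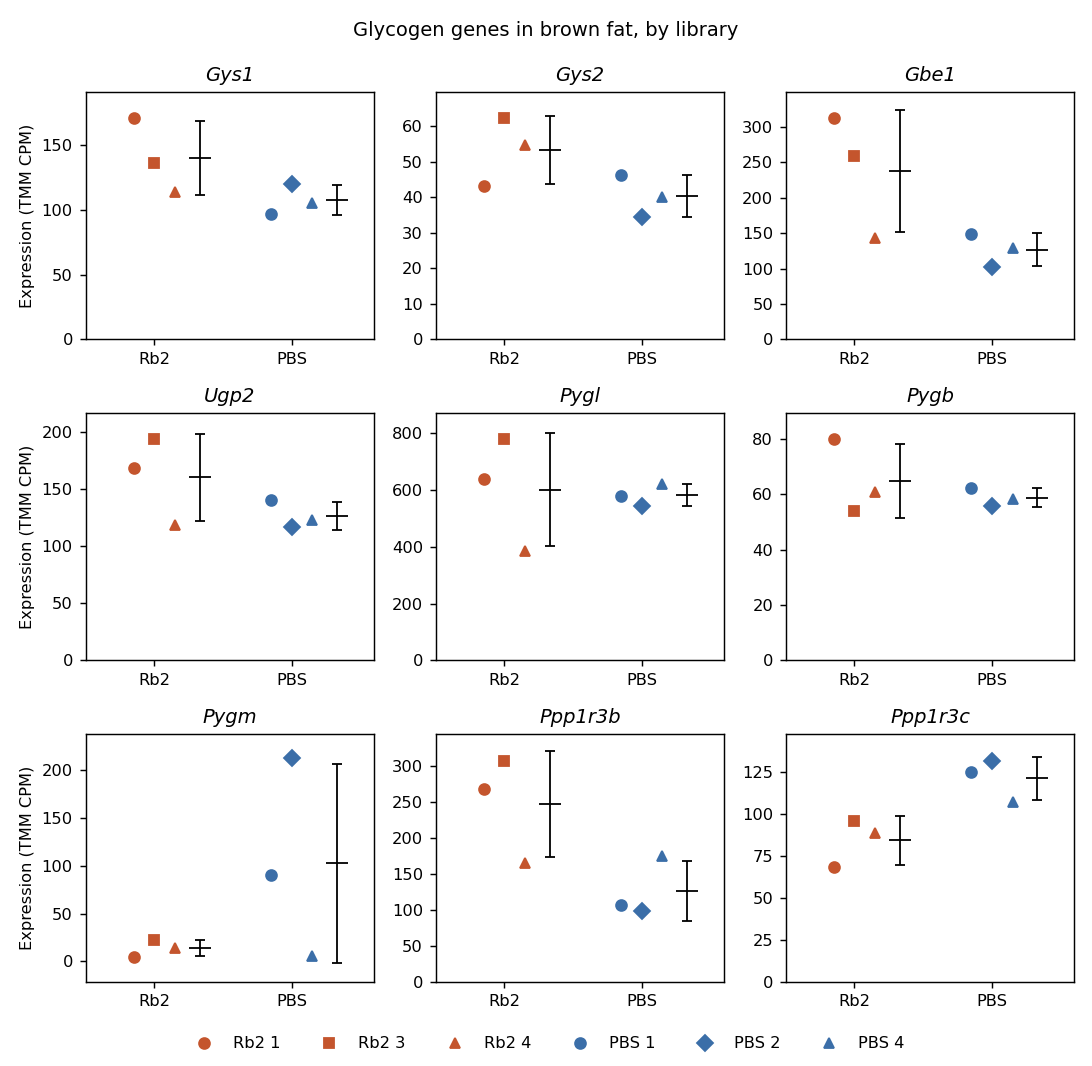
Expression of the 9 genes in TMM CPM for each library, with Rb2 left and PBS right. Black bars give the mean and SD of 3 libraries. The groups are apart without overlap in 1 panel, that of Ppp1r3c. The Rb2 4 triangle is the lowest of the Rb2 points for Gys1, Gbe1, Ugp2, Pygl and Ppp1r3b, and the Pygm panel is spread by PBS 1 and PBS 2.

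Among the phosphorylases, Pygl (gene 110095; chromosome 12, 70190815 to 70227683) was at 640, 778 and 385 CPM in Rb2 1, 3 and 4, and at 578, 544 and 621 CPM in PBS 1, 2 and 4. The Rb2 libraries held both the highest and the lowest level, with the PBS libraries between them. The mean was 601 ± 199 CPM with Rb2 and 581 ± 38.5 CPM with PBS (SD, n = 3 each). The log2 fold change was 0.05 ± 0.23 SE, with a 95% interval from -0.48 to 0.58 (edgeR adjusted p = 0.909), so changes of up to about that size in either direction were not resolved. The sign depended on the scaling, with -0.05 for library size alone.

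Pygb (gene 110078; chromosome 2, 150786796 to 150831748) was at 79.7, 54.0 and 60.7 CPM in Rb2 1, 3 and 4, and at 62.2, 55.7 and 58.3 CPM in PBS 1, 2 and 4. It varied least of the 9 genes, with a coefficient of variation of 15.1% over the 6 libraries. Its log2 fold change was 0.14 ± 0.16 SE (95% interval -0.21 to 0.49, edgeR adjusted p = 0.572).

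Pygm, the phosphorylase of muscle (gene 19309; chromosome 19, 6384408 to 6398464), was at 4.96, 22.0 and 14.3 CPM in Rb2 1, 3 and 4, and at 90.3, 212 and 5.43 CPM in PBS 1, 2 and 4. PBS 1 and PBS 2 were the high libraries, and PBS 4 was as low as Rb2 1, so the groups overlapped. The log2 fold change was -2.90 ± 1.47 SE, with a 95% interval from -6.90 to 1.10 (edgeR adjusted p = 0.273). The order of the 6 Pygm levels was that of the summed muscle markers. With Rb2 1 as a base, Pygm was higher by 3.60 and 3.43 CPM in Rb2 3 and 4, and by 3.43, 2.75 and 6.32 CPM in PBS 1, 2 and 4, for each 100 CPM of added muscle markers. The value of PBS 4 rests on a marker level close to that of Rb2 1. In both libraries nearly free of muscle markers, Pygm was at 4.96 CPM (Rb2 1) and 5.43 CPM (PBS 4), from 420 and 531 counts. The log2 fold change was -0.70 with the muscle markers as a covariate (edgeR adjusted p = 0.502) and 1.34 without PBS 1 and PBS 2 (edgeR adjusted p = 0.659). In bulk tissue, fewer cells of a type and less RNA per cell cannot be told apart.

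**Figure D2:**
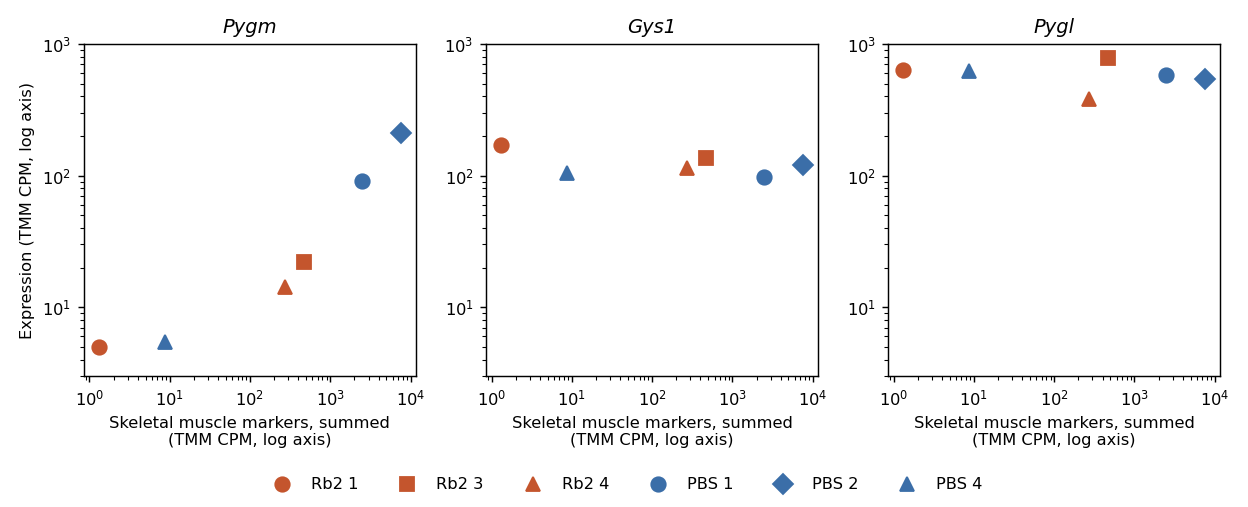
Level of Pygm, Gys1 and Pygl in TMM CPM (log axis) against the summed level of 18 skeletal muscle markers (log axis), 1 point per library. Pygm climbs with the markers, between 4.96 CPM in Rb2 1 and 212 CPM in PBS 2, while Gys1 and Pygl show no such order.

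Of the PP1 targeting subunits, Ppp1r3b (gene 244416; chromosome 8, 35375694 to 35388139), the form known from liver, was at 268, 307 and 165 CPM in Rb2 1, 3 and 4, and at 107, 97.7 and 174 CPM in PBS 1, 2 and 4. The overlap came from Rb2 4 and PBS 4, which lay close to each other between the other libraries. The mean was 247 ± 73.3 CPM with Rb2 and 126 ± 41.7 CPM with PBS (SD, n = 3 each). The fold was 1.96 with a 95% interval of 1.23 to 3.12 (log2 fold change 0.97 ± 0.29 SE, edgeR adjusted p = 0.0721). Ppp1r3b passed without Rb2 4 (1.19, edgeR adjusted p = 0.0238) and without PBS 4 (1.25, edgeR adjusted p = 0.0310), a fit that called 9.09% of all genes. It did not pass without PBS 1 (0.86, edgeR adjusted p = 0.191) or without PBS 2 (0.82, edgeR adjusted p = 0.199). Those fits called 334 and 303 of 17156 genes, against 1743 of 16707 with all libraries.

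Ppp1r3c, also called PTG (gene 53412; chromosome 19, 36731731 to 36736604), was at 68.0, 95.6 and 88.8 CPM in Rb2 1, 3 and 4, and at 125, 132 and 107 CPM in PBS 1, 2 and 4. Every Rb2 library was below every PBS library. Among the 9 genes this was 1 without overlap, where 35.8% of all tested genes had none. The mean was 84.1 ± 14.3 CPM with Rb2 and 121 ± 12.8 CPM with PBS (SD, n = 3 each), a fold of 0.694 with a 95% interval of 0.541 to 0.890 (log2 fold change -0.53 ± 0.16 SE, edgeR adjusted p = 0.0643). It passed with a count minimum of 50 (edgeR adjusted p = 0.0480), where 15.9% of genes passed, and with the GC and length offset (-0.59, edgeR adjusted p = 0.0477), where 8.36% passed. A covariate for the muscle markers gave -0.40 (edgeR adjusted p = 0.116). Both subunits act on the same phosphatase, and their log2 fold changes, neither past edgeR's threshold, had opposite signs. On the scale of CPM per kilobase of the longest transcript, the ratio of Ppp1r3b to Ppp1r3c was 2.45, 1.997 and 1.16 in Rb2 1, 3 and 4, and 0.530, 0.461 and 1.01 in PBS 1, 2 and 4. The ratios did not overlap, and Rb2 4 and PBS 4 were the closest pair. This ratio was not among the planned results. It sets the member with the highest log2 fold change over the member that was lower without overlap, so its separation partly follows from that choice. It has no test and no share over other gene pairs.

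Per kilobase of transcript, Pygl was the most abundant of the 9 transcripts in both groups, at 191 ± 63.3 CPM per kilobase with Rb2 and 184 ± 12.2 with PBS (SD, n = 3 each). With Rb2 the next levels were those of Gbe1 (63.7 ± 23.2), Ugp2 (59.7 ± 14.1) and Ppp1r3b (56.3 ± 16.7), which lay within their SDs of each other. Below them came Gys1 (38.1 ± 7.84), Ppp1r3c (30.9 ± 5.26), Gys2 (20.1 ± 3.60), Pygb (16.6 ± 3.42) and Pygm (4.78 ± 2.97). With PBS, Ugp2 (47.1 ± 4.50) and Ppp1r3c (44.5 ± 4.71) were next to Pygl and within their SDs of each other, followed by Pygm (35.7 ± 36.2), Gbe1 (33.9 ± 6.30), Gys1 (29.2 ± 3.13), Ppp1r3b (28.8 ± 9.51), Gys2 (15.2 ± 2.24) and Pygb (15.03 ± 0.84). Pygm takes its place in the PBS order from PBS 1 and PBS 2, and it was at 1.89 CPM per kilobase in PBS 4.

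Both synthase forms were present in every library, and the share of Gys1 overlapped between the groups. Gys1 took 74.1%, 61.2% and 60.1% of synthase transcripts per kilobase in Rb2 1, 3 and 4, and 60.2%, 71.5% and 65.6% in PBS 1, 2 and 4. The means were 65.1% ± 7.77 with Rb2 and 65.8% ± 5.65 with PBS (SD, n = 3 each). Of the phosphorylase transcripts, Pygl took 90.2%, 92.0% and 85.6% in Rb2 1, 3 and 4, and 79.5%, 66.2% and 92.1% in PBS 1, 2 and 4. Pygm took 0.766%, 2.85% and 3.48% with Rb2 in that order, and 13.6%, 28.3% and 0.883% with PBS. With Pygm left out, Pygl took 91.4% ± 3.03 of the remaining phosphorylase transcripts with Rb2 and 92.5% ± 0.48 with PBS (SD, n = 3 each).

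The summed synthases over the summed phosphorylases, per kilobase, came to 0.279, 0.225 and 0.361 in Rb2 1, 3 and 4, and to 0.190, 0.175 and 0.204 in PBS 1, 2 and 4, with no overlap. With the muscle form Pygm left out of the sum, the ratios were 0.281, 0.232 and 0.374 with Rb2 and 0.220, 0.244 and 0.206 with PBS, and the groups overlapped through Rb2 3 and PBS 2. The separation of the first ratio thus needed the muscle phosphorylase of PBS 2. Neither ratio was among the planned results, and neither has a test or a share over other sets of genes.

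**Figure D3:**
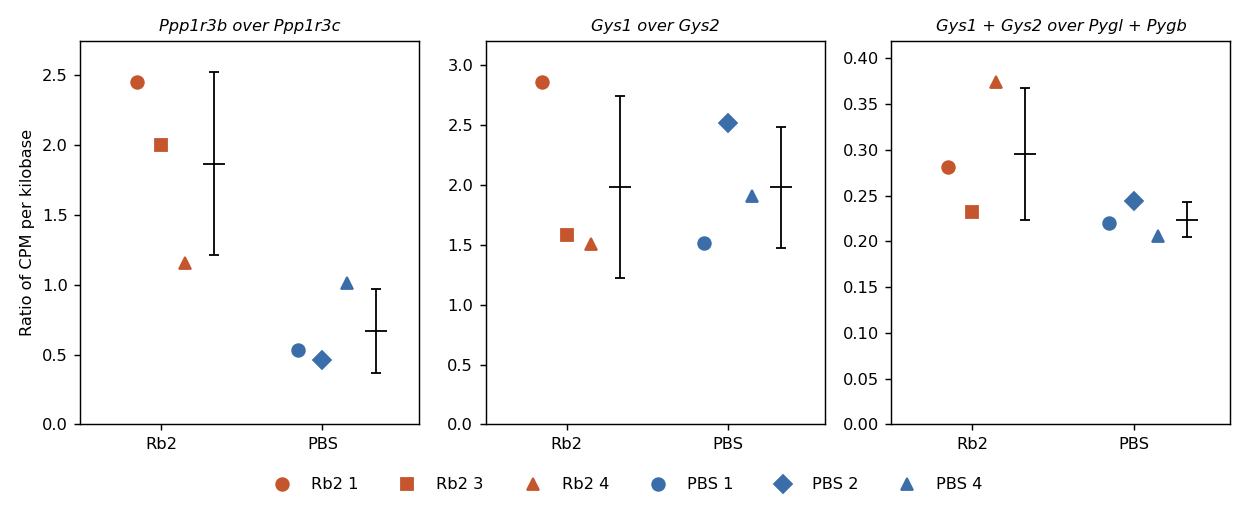
Ratios of CPM per kilobase by library, with Rb2 left and PBS right, and black bars for the mean and SD of 3 libraries. The ratio of Ppp1r3b to Ppp1r3c is at least 1.16 in Rb2 libraries and at most 1.01 in PBS libraries, while the ratio of Gys1 to Gys2 and that of the synthases to Pygl and Pygb overlap. Ppp1r3b and Ppp1r3c have log2 fold changes of opposite sign. Neither their ratio nor that of the synthases to the phosphorylases was planned, and no ratio was tested.

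Of the other 24 glycogen genes, none passed edgeR's threshold in either direction, where 10.4% of all tested genes passed. At an unadjusted p under 0.05 there were 5, against 30.0% of all tested genes. The median log2 fold change was 0.12, against -0.01 over all tested genes. limma-voom also called 0, where it called 9.74% of all genes. DESeq2, which called 19.8% of all genes, called 2, Ppp1r3e and Ppp1cb, both higher with Rb2. Ppp1cb, a catalytic subunit of PP1 and the gene with the lowest p, was at 341, 350 and 267 CPM in Rb2 1, 3 and 4, and at 248, 202 and 206 CPM in PBS 1, 2 and 4. The groups did not overlap, and the log2 fold change was 0.55 ± 0.16 SE (edgeR adjusted p = 0.0579). Without Rb2 4 it passed (0.65, edgeR adjusted p = 0.0292). Exons of Ppp1cb share 1908 bases with Gm43312 on the same strand. Pgm2l1, a relative of the phosphoglucomutases that makes glucose-1,6-bisphosphate, was at 9.12 ± 0.79 CPM with Rb2 and 6.69 ± 0.83 CPM with PBS (SD, n = 3 each; log2 fold change 0.45 ± 0.15 SE, edgeR adjusted p = 0.0869), also without overlap. In all, 6 of the 24 had no overlap, against 35.8% of all tested genes.

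The muscle-type genes Phkg1, Ppp1r3a and Phka1 were, like Pygm, highest in PBS 1 and PBS 2, the libraries richest in muscle markers. Phkg1, the catalytic subunit of muscle phosphorylase kinase, was at 0.767, 2.02 and 1.16 CPM in Rb2 1, 3 and 4, and at 8.13, 14.9 and 0.634 CPM in PBS 1, 2 and 4. Its exons share 630 bases with Sumf2 on the opposite strand. Ppp1r3a, the PP1 targeting subunit of striated muscle, was at 0, 1.22 and 0.724 CPM in Rb2 1, 3 and 4, and at 6.71, 11.9 and 0 CPM in PBS 1, 2 and 4. A count of 0 allows up to 3 counts, or 0.0354 CPM in Rb2 1 and 0.0307 CPM in PBS 4, for counting error only. Phka1, a regulatory subunit of the kinase, spanned less, at 12.2, 10.3 and 9.05 CPM in Rb2 1, 3 and 4, and at 14.8, 26.8 and 8.13 CPM in PBS 1, 2 and 4. The liver-type partner Phka2 was at 33.4 ± 6.47 CPM with Rb2 and 30.9 ± 3.15 CPM with PBS (SD, n = 3 each).

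Other steps of the pathway did not pass the test either. Glycogenin (Gyg), which primes the chain, was at 109 ± 14.5 CPM with Rb2 and 111 ± 16.7 CPM with PBS. The main phosphoglucomutase, listed as Pgm2 in the table (gene 72157, named Pgm1 by RefSeq), was at 202 ± 22.5 CPM with Rb2 and 207 ± 7.90 CPM with PBS (SD, n = 3 each). The 95% intervals of their log2 fold changes were -0.38 to 0.33 for Gyg and -0.35 to 0.27 for Pgm2. Gyg, Pgm2, Phka2 and Ppp1r3e were chosen after their values were seen.

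**Figure D4:**
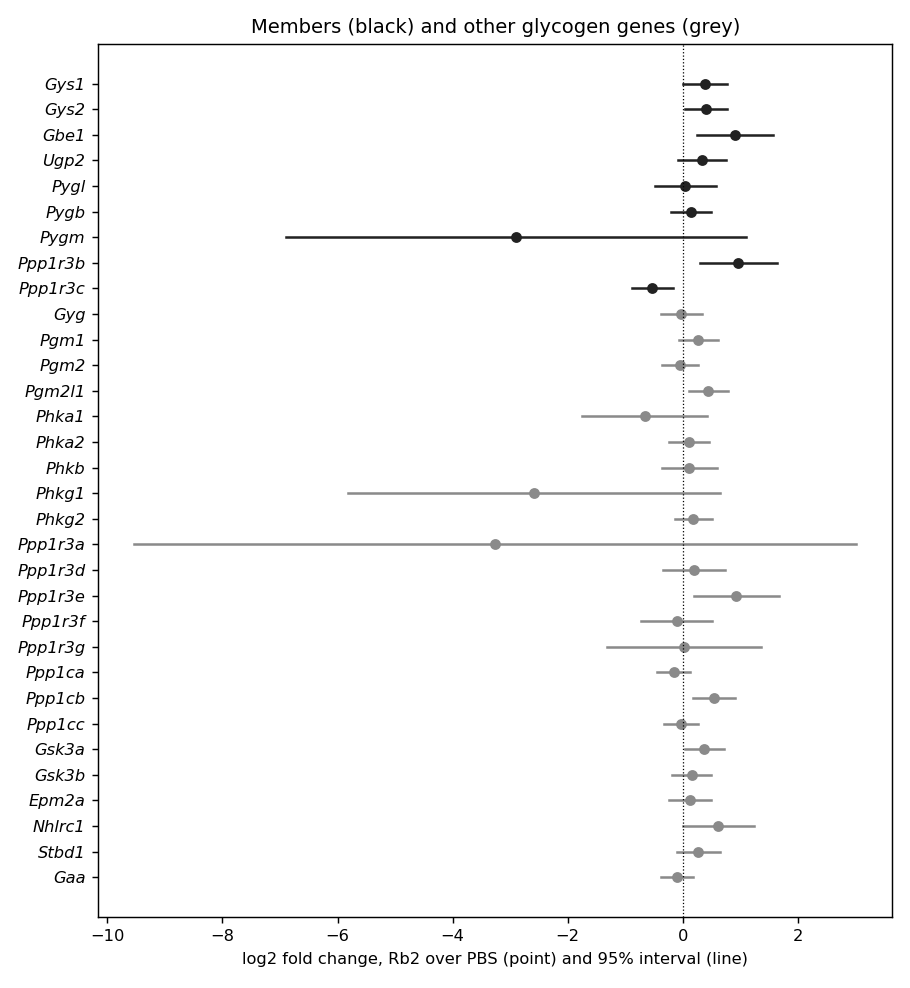
Log2 fold change of Rb2 over PBS (points) with its unadjusted 95% interval (lines) for the 9 members in black and 23 of the other glycogen genes in grey. The intervals of Pygm, Phkg1 and Ppp1r3a are the widest. Among the members, those of Gys2, Gbe1 and Ppp1r3b lie above 0 and that of Ppp1r3c lies below it. Of the grey genes, 5 also have intervals that lie above 0. None of these genes passed after adjustment.

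Rb2 4 was the lowest Rb2 library for 5 of the 8 members other than Pygm, Rb2 1 for 2 and Rb2 3 for 1. The share over all tested genes was not computed, so the count is not read as a trait of these members. Within the groups, Gbe1 was at 238 ± 86.7 CPM with Rb2 and 127 ± 23.5 CPM with PBS. Ppp1r3b was at 247 ± 73.3 and 126 ± 41.7 CPM, in the same order. Coefficients of variation over the 6 libraries, which include the difference between the groups, were 45.7% for Gbe1 and 45.6% for Ppp1r3b. The members other than Pygm kept the sign of their log2 fold change in every alternative fit except Pygl and Pygb. With both muscle-rich PBS libraries left out, a fit that keeps 1 PBS library and takes it to vary like the Rb2 libraries, edgeR called none of the 17776 genes tested, while 2063 had an unadjusted p under 0.05. There the log2 fold changes were 0.89 for Gbe1, 0.51 for Ppp1r3b and -0.34 for Ppp1r3c.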

How the data were processed

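Messenger RNA of brown adipose tissue was measured in 3 Rb2-treated and 3 PBS-treated mice. Per the labels' protocols, RNA was isolated on columns and made into strand-marking mRNA libraries. The authors deposited whole-number read counts per gene, not normalized. The submitters' processing notes name mm10 and the programs HISAT2, StringTie, Bowtie2 and Trimmomatic. Which program counted, and whether by strand, is not given in the sources used here. Columns were assigned to groups by name, since their numbers do not match those of the titles.

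Counts of genes passing edgeR's expression filter (count minimum 10, total at least 15) were fitted with edgeR 4.0.16 (R 4.3.3), TMM factors and robust quasi-likelihood F tests, adjusted by Benjamini-Hochberg over 16707 genes. The SE is the log2 fold change over the square root of F. 95% intervals use the test's t distribution and are not adjusted. Alternatives were other scalings, DESeq2 1.42.0, limma-voom 3.58.1, other filters, a muscle covariate (mean log2 of CPM + 0.1), a GC and length offset (natural splines with 5 degrees of freedom, genes with values 94.4% of those tested), a block and left-out libraries. Lengths are those of the longest GENCODE M21 transcript; positions and promoters are RefSeq's for GRCm38.p6, the assembly behind mm10. Of the members, 7 of 9 had a promoter window.

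The members, lists, tests and alternatives were chosen with earlier results of these data known. The rule for named genes took all 9 members, then the other glycogen genes past the threshold or at least the 2 with the lowest p, and the muscle-type genes. It also asked for the genes most like each member past the threshold, and there was no such member. The values of 1 of the other glycogen genes are not reported here. No 2 libraries were duplicates (Pearson r of log2 CPM across genes 0.920 to 0.979).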

Additional observations from a re-analysis of the deposited data

How the results depend on the processing

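The count of 0 called members stayed 0 under library size alone, upper-quartile factors, the size factors of DESeq2, limma-voom, no filter, the muscle covariate and the omission of both muscle-rich PBS libraries. It was 3 in the DESeq2 Wald test, 1 with a count minimum of 50 and 1 with the GC and length offset. The corresponding counts for the other 24 glycogen genes were 2 (DESeq2), 1 (count minimum of 50, with 23 genes tested) and 1 (offset, Gsk3a), and 0 elsewhere. Leaving out 1 library gave 0 to 2 called members and 0 to 2 called other genes. Those were Ppp1r3b without PBS 4 and Gbe1 and Ppp1r3b without Rb2 4, and of the others Phka1 and Phkg1, both lower, without PBS 4 and Ppp1cb without Rb2 4. The cause of these differences was not tested. The higher count minimum leaves fewer genes in the test, and the fits without a library rest on fewer libraries. Leaving out the length correction changed the mean shares of Gys1, Gys2 and Pygb with PBS to 72.6%, 27.4% and 7.96%, beyond the SD of the group. With Rb2 they became 72.0%, 28.0% and 10.2%, shifts in the same direction but within the larger SD of that group.

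Both groups carry the numbers 1 and 4 in the column names. With those numbers as a replicate block 0 members and 0 other genes were called, among 96 genes in all. Deviations from the group means of same-numbered libraries had correlations of -0.197 and -0.215 across genes, so the numbers were not taken to pair the mice.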
